A study of Mus musculus with 14 samples.

Results

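The granzymes and cytotoxic effector genes of regulatory T cells (Tregs) were followed across the whole series. The 9 genes were given by symbol, as Gzma, Gzmb, Gzmk, Prf1, Nkg7, Ctsw, Ccl5, Eomes and Serpinb9, and their rows were taken by gene ID, not by expression value. The list was still chosen with earlier results of these data known, among them the study's report that Gzma and Gzmb depend on JunB. All 9 were found among the 53801 gene rows of the first count table and the 55487 rows of the second. The series holds 14 RNA-seq libraries of sorted mouse Tregs, and it asked which transcripts depend on JunB in Tregs of the intestine. In the constitutive line, Foxp3-YFP-cre drives Cre from the Foxp3 locus, and CD4+Foxp3(YFP)+CD62L- Tregs were sorted from the Peyer's patches (PP) of untreated male mice 8 to 12 weeks old, giving 2 Junb F/+ (HET) and 2 Junb F/F (KO) libraries. In the inducible line, Foxp3-EGFP-cre-ERT2 with a Rosa26-tdTomato reporter, mice 10 to 12 weeks old received tamoxifen by gavage, 8 mg in each of 3 doses (days 0, 1 and 3), and were analysed on day 7. From this line, TCRb+CD4+Foxp3(EGFP)+tdTomato+CD25- Tregs came from the PP (2 Junb F/+, or iHET, and 2 Junb F/F, or iKO, libraries), and TCRb+CD4+Foxp3(EGFP)+tdTomato+ Tregs came from the colon lamina propria (3 iHET and 3 iKO libraries, from 3 animals a group). Replicate 1 was male and replicates 2 and 3 were female in the inducible line. Every control carried Cre and 1 floxed Junb allele, so no library represents Tregs with both alleles intact. The Junb floxed mice had been backcrossed to C57BL/6, compared genotypes were littermates and shared cages, and Junb deletion outside Tregs has been seen with Foxp3-YFP-cre. For the PP and CD25- PP libraries the labels do not say whether each is 1 mouse, nor whether colonic and CD25- PP libraries with the same number share one, so p-values measure only the spread between libraries.

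Cytotoxic lymphocytes carry granules in which perforin and the granzymes are stored. On contact with a target cell the granules fuse with the plasma membrane, perforin opens the target membrane, and the granzymes, a family of serine proteases, cleave proteins inside the target. CD8 T cells and NK cells are the best known users of this pathway, and activated Tregs can use granzyme B to suppress or kill responding cells. JunB is a subunit of the transcription factor AP-1, which binds the DNA motif TGANTCA.

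The sequences just upstream of Gzmb and Gzma are shown because these granzymes had the highest levels of the family and because the deleted factor binds a known motif. RefSeq (GRCm38.p6) held a promoter entry for 7 of the 9 genes, and Ctsw and Ccl5 had none. The 250 bases before each start were searched for TGANTCA and for TGACGTCA, the related motif with one more base in its centre. Both motifs read the same on the 2 strands, and neither contains the other. Among all 32851 promoter windows of that length, 6.75% held TGANTCA and 1.55% held TGACGTCA. Of the 7 genes, Gzmb alone held a match, 1 TGANTCA that begins 58 bases before its RefSeq start. The Gzmb window is chr14:56262335-56262584 on the minus strand, the Gzma window is chr13:113100982-113101231 on the minus strand, both are written 5′ to 3′, and capitals mark the match.
Gzmb: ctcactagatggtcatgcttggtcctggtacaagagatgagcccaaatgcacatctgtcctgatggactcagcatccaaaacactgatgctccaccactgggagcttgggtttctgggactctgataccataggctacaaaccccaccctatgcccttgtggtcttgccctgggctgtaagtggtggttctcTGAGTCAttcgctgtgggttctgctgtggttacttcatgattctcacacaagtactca
Gzma: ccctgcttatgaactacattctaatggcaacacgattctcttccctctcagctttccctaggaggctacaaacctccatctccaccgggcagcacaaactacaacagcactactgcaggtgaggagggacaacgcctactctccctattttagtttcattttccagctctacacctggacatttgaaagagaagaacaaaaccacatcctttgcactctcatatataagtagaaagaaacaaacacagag
The start that GENCODE M21 gives for Gzmb lies 74 bases further into the gene than the RefSeq start, and for Gzma both starts coincide. Along the gene, the GENCODE start lies at -44943 bases from the RefSeq start for Gzmk and at -1291 bases for Serpinb9. The windows searched for Gzmk and Serpinb9 thus lie inside the GENCODE gene and not before its start. For Prf1, Nkg7 and Eomes the same offsets are -3, -65 and 23 bases. A match of letters is a description of the sequence and not evidence that a factor bound there, and a window without a match says nothing about sites elsewhere.

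The libraries held 26274861 to 35508709 assigned reads, so 3 reads correspond to 0.0845 to 0.114 CPM, the reads of a gene divided by the library total and scaled to a common depth. Junb, the deleted gene, was at 4182 to 8471 CPM in the 7 control libraries and at 561 to 1029 CPM in the 7 libraries with 2 floxed alleles. Sex-specific transcripts fitted the sex given in the labels for 14 of 14 libraries. Foxp3, Ikzf2, Ctla4, Il2ra, Tnfrsf18, Cd4 and Cd3e, the Treg markers, summed to 4276 to 8229 CPM. CD8 T cell markers (Cd8a and Cd8b1) summed to 7.79 to 31.7 CPM, and 7 NK cell markers summed to 0.230 to 22.0 CPM. Epithelial markers (Epcam, Vil1, Krt8 and Krt20) summed to 39.8 to 905 CPM, with the highest sum in colonic iKO replicate 3. In bulk libraries, fewer cells of a type and less RNA per cell cannot be told apart.

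Levels of the 9 genes are given as CPM after normalization within each of the 2 count tables, which were processed and normalized separately. Per kilobase of exon, Gzmb, Gzma and Ctsw were the 3 highest of the 9 genes in PP HET Tregs, at 215.5 ± 47.8, 178 ± 71.9 and 83.9 ± 7.40 CPM per kb (mean ± SD of 2 libraries). Gzmb and Gzma overlapped between those libraries, whereas Ctsw was below both. Prf1, at 3.82 ± 1.18 CPM per kb, was far under the granzymes it works with, and Gzmk (0.524 ± 0.149) and Eomes (0.279 ± 0.122) were the lowest. PP KO Tregs had another order. There Ctsw came first at 108 ± 3.70 CPM per kb, above Gzmb at 32.4 ± 27.1, followed by Serpinb9 at 22.4 ± 0.511 and Gzma at 16.0 ± 4.93. CD25- PP Tregs had Gzma first and Gzmb second in both genotypes. Their iHET libraries held 145 ± 30.4 CPM per kb of Gzma and 96.1 ± 20.99 of Gzmb, with no overlap. In colonic Tregs Gzmb stood alone, at 264 ± 3.09 CPM per kb in the 3 iHET libraries, and the next gene, Nkg7, was at 40.0 ± 11.1. Ctsw, Serpinb9 and Gzma followed in colonic iHET Tregs at 36.0, 30.5 and 29.3 CPM per kb, and each overlapped its neighbour in that order.

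**Figure D1:**
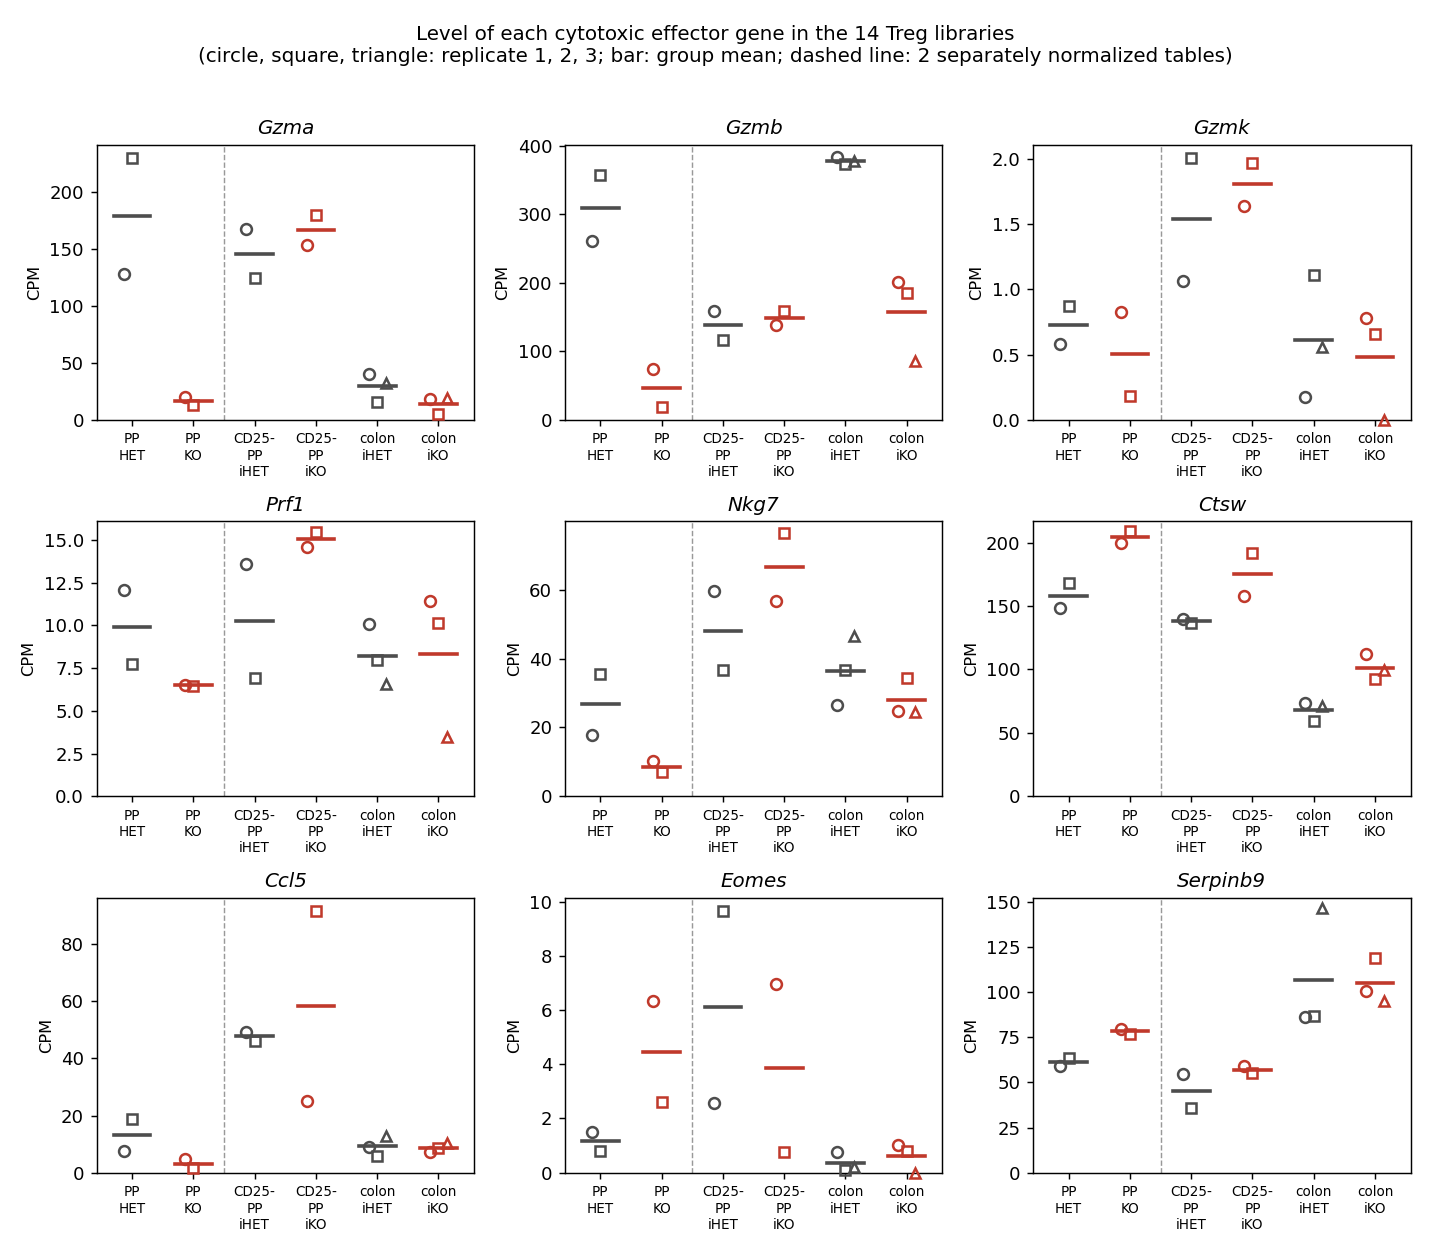
Level of each of the 9 genes in CPM (linear axis from 0, a scale of its own in each panel) in 6 groups of Treg libraries; symbols are libraries, bars are group means, grey is Junb F/+ and red is Junb F/F. Gzma is at 12.6 to 19.6 CPM in PP KO against 128 to 230.5 CPM in PP HET, and Gzmb is at 374 to 383 CPM in colonic iHET against 85.4 to 201 CPM in colonic iKO.

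The first comparison asked what PP Tregs express when they have lacked JunB since Foxp3 was first switched on. Both abundant granzymes and the granule protein Nkg7 fell, whereas the other 5 tested genes did not pass the threshold (adjusted p under 0.05, edgeR quasi-likelihood test over 12224 genes). Across those genes 3.35% were called, 0.990% higher and 2.36% lower, against 3 lower and 0 higher of the 8 tested cytotoxic genes. The median log2 fold change was -1.12 for the 8 genes and 0.00 for all genes tested. Gzmk was too low to be tested.

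Gzma encodes granzyme A, a protease that cleaves after basic residues, and lies at chr13:113093825-113100981. HET Tregs held 128 and 230.5 CPM, KO Tregs 19.6 and 12.6 CPM. Both KO libraries were far below both HET libraries. The log2 fold change was -3.47 with an SE of 0.30, an 11.1-fold lower level (95% interval on the log2 scale -4.17 to -2.78, adjusted p = 0.00185). Gzma was called under each alternative test, filter and normalization tried, and without any one library. Gzmb encodes granzyme B, which cleaves after aspartate and can activate caspases, and lies at chr14:56258838-56262260. HET Tregs held 261 and 358 CPM, KO Tregs 74.0 and 18.9 CPM. The KO libraries lay below the HET libraries, but they differed 3.91-fold from each other. On average Gzmb was 6.65-fold lower, a log2 fold change of -2.73 with an SE of 0.50 (adjusted p = 0.0287). Its size depended on which KO library was kept, at -4.03 on the log2 scale without KO replicate 1 and -2.07 without KO replicate 2. Without HET replicate 1 or HET replicate 2 it was -2.94 or -2.48 with an adjusted p of 0.152 or 0.164, and the call was lost. Gzmk, the tryptase-like granzyme K, is the nearest of the 9 genes to Gzma, 70626 bases away at chr13:113171608-113225908. HET libraries gave 18 and 24 reads of Gzmk, KO libraries 23 and 5 reads, and the groups overlap.

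Nkg7 encodes a membrane protein of cytotoxic granules that is needed for their release, and lies at chr7:43437073-43438249. The HET values were 17.9 and 35.5 CPM, the KO values 10.2 and 6.90 CPM. The KO libraries were the lower in each case, with a log2 fold change of -1.64, an SE of 0.32 and an adjusted p of 0.0358. Without HET replicate 2 or KO replicate 2 the log2 fold change of Nkg7 was -1.06 or -1.39 with an adjusted p of 0.182 or 0.134, and that call was lost too. Prf1 (chr10:61297833-61304680), which encodes the pore-forming protein perforin, had HET levels of 12.04 and 7.72 CPM and KO levels of 6.53 and 6.45 CPM. Its log2 fold change of -0.60 had an interval from -1.21 to 0.00 and an adjusted p of 0.359. The groups did not overlap, but neither did those of 43.6% of all genes tested, and all 8 tested genes were among these.

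Ctsw, Eomes and Serpinb9 were higher in both KO libraries, without a call in the quasi-likelihood test. Ctsw (chr19:5465043-5468507), which encodes cathepsin W, a cysteine protease of cytotoxic lymphocytes, had HET levels of 148 and 168 CPM and KO levels of 199 and 209 CPM. For Ctsw the log2 fold change was 0.37 with an SE of 0.09 and an adjusted p of 0.0687, and the exact test and DESeq2 gave 0.0250 and 0.0142. Eomes (chr9:118478212-118486132) encodes a T-box transcription factor of cytotoxic lymphocytes. Levels were 1.52 and 0.801 CPM (HET) against 6.32 and 2.60 CPM (KO) (log2 fold change 1.90, adjusted p = 0.109). These levels correspond to 22 to 176 reads, and the exact test and DESeq2 called the difference with adjusted p of 0.0171 and 0.0224. Serpinb9 (chr13:33003250-33017957) encodes the serpin that inhibits granzyme B inside the cell that makes it. Levels were 59.2 and 63.2 CPM (HET) against 79.5 and 77.0 CPM (KO), a log2 fold change of 0.35 with an adjusted p of 0.105, which the exact test and DESeq2 put at 0.121 and 0.0445. Ccl5 (chr11:83525778-83530518), a chemokine stored and secreted by cytotoxic lymphocytes, had HET levels of 7.65 and 18.9 CPM and KO levels of 4.70 and 1.52 CPM. The log2 fold change of -2.08 had an SE of 0.56 and an adjusted p of 0.106, and only the exact test, at 0.0114, passed the threshold among the 3 tools. Single libraries moved Ccl5 both ways, to -3.09 without KO replicate 1 (adjusted p = 0.0251), -2.59 without HET replicate 1 (0.157), -1.49 without KO replicate 2 (0.227) and -1.28 without HET replicate 2 (0.504). Of the 8 tested genes the exact test called 6, against 5.64% of all genes, and DESeq2 called 6, against 696 of all 12224 genes.

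The rest of the pathway was read from lists of 45 other genes. Of these, 36 were tested, and 3 were called higher and 2 lower, against 0.990% and 2.36% of all genes tested. The median log2 fold change of the 36 was -0.01. Among 15 genes of granule loading and release, Ctsh and Stx11 fell. Ctsh encodes cathepsin H, a protease that can activate granzyme B, and went from 15.6 and 22.9 CPM to 8.04 and 9.20 CPM (log2 fold change -1.15, adjusted p = 0.0325). Stx11 encodes a syntaxin of granule fusion and went from 530.3 and 478 CPM to 264 and 341 CPM (log2 fold change -0.74, adjusted p = 0.0217). The 3 genes that rose belonged to 3 different lists. Lta, which encodes lymphotoxin alpha, was the one called of 5 death ligands and effector cytokines (log2 fold change 0.74, adjusted p = 0.0148). Prdm1, which encodes a transcriptional repressor of differentiated lymphocytes, was the one called of 5 tested transcription factors (0.38, adjusted p = 0.0441). Serpina3g, a serpin that inhibits cathepsins, was the one called of 4 tested other serpins (0.81, adjusted p = 0.00242). None of the 3 other chemokines was called, and of 7 other granzymes only Gzmm reached the level needed for a test, at 0.692 to 1.29 CPM.

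Transcripts of other cells moved with the same comparison. The summed NK cell markers were at 19.6 to 22.0 CPM (HET) against 6.05 to 6.39 CPM (KO), almost all of it Klrb1c, the single one of the 7 that could be tested. Klrb1c fell from 21.8 and 19.2 CPM to 6.28 and 5.97 CPM (log2 fold change -1.74, adjusted p = 0.00368), whereas Ncr1, a defining NK cell receptor, was at 0 in both HET libraries, with 3 and 0 reads in KO. Epithelial markers summed to 87.2 to 109.5 CPM (HET) against 39.8 to 43.6 CPM (KO), and 3 of 4 were called lower (4 by the exact test). The B cell sum was 129 to 152 CPM against 77.3 to 117 CPM, with 0 of 4 called by the quasi-likelihood test and 1, Ms4a1, called lower by the exact test and DESeq2 (log2 fold change -0.88, adjusted p = 0.0245 and 0.0173). CD8 T cell markers summed to 28.2 to 30.5 CPM (HET) against 25.2 to 29.5 CPM (KO), and neither was called by any of the 3 tools. Markers of plasmacytoid dendritic cells, which also make granzyme B, summed to 12.9 to 13.0 CPM (HET) against 4.81 to 7.94 CPM (KO), with 0 of 2 tested called by the quasi-likelihood test and 1, Siglech, called lower by the exact test and DESeq2 (log2 fold change -1.003, adjusted p = 0.0234 and 0.0148). For gamma delta T cells the sums were 14.9 to 19.99 against 20.3 to 24.8 CPM, and for myeloid cells 95.9 to 159 against 97.2 to 137 CPM, with 0 of 3 and 0 of 4 tested called by any of the 3 tools. Treg markers moved too, 5 of 7 higher and 2 lower, with 2 called higher by the quasi-likelihood test and 3 by the exact test. Foxp3 was at 83.2 and 89.6 CPM (HET) against 122 and 124 CPM (KO), and Il2ra at 463 and 478 against 683 and 882 CPM. By flow cytometry, the study reported a loss of CD25- Tregs and of follicular regulatory T cells in KO mice. The part of other cells and of the mix of Tregs in the granzyme levels was not tested.

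**Figure D2:**
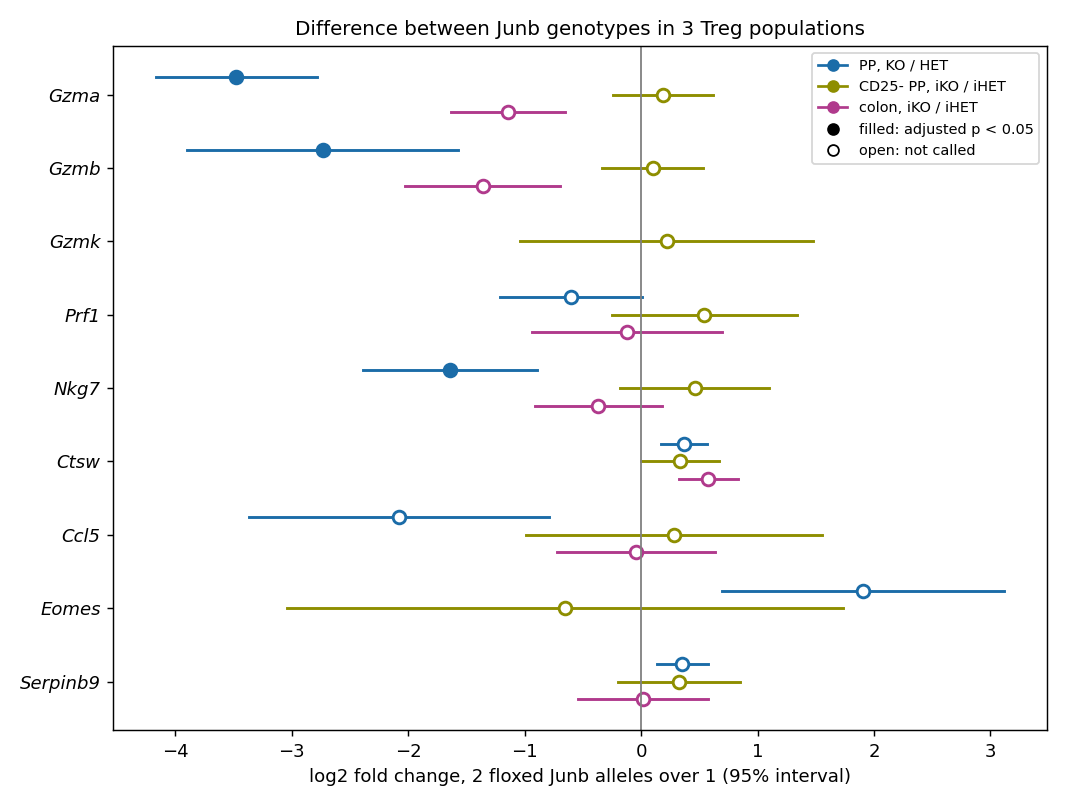
Log2 fold change of each gene between genotypes (2 floxed Junb alleles over 1) in PP Tregs of the constitutive line, CD25- PP Tregs and colonic Tregs; points are estimates, lines are 95% intervals, filled points passed an adjusted p of 0.05. Gzma and Gzmb lie at -3.47 and -2.73 in PP Tregs, at 0.19 and 0.10 in CD25- PP Tregs and at -1.15 and -1.36 in colonic Tregs; a gene without a point was too low to be tested.

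In CD25- PP Tregs the question was what changes within 7 days of induced deletion. None of the 9 genes was called, and the 2 granzymes that fell in PP KO Tregs had nearly equal levels in both genotypes. The quasi-likelihood test called 0 of 17079 genes (0%), with 618 (3.62%) at an unadjusted p under 0.05, and the exact test called 43 (0.252%) and DESeq2 35. For the 9 genes the same counts were 0 by each of the 3 tools and 1 at an unadjusted p under 0.05. Their median log2 fold change was 0.28, and that of all genes tested was 0.00.

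Gzma levels were 168 and 125 CPM (iHET) against 154 and 181 CPM (iKO). The libraries interleaved, and the log2 fold change of 0.19 had a 95% interval from -0.24 to 0.62. Gzmb levels were 159 and 117 CPM (iHET) against 138 and 159 CPM (iKO). The log2 fold change of 0.10 had an interval from -0.33 to 0.53. A decrease of the size seen in PP KO Tregs lies outside both intervals, although the lines, gates and durations of deletion differ between the comparisons. Ctsw levels were 139.6 and 137 CPM (iHET) against 158 and 192 CPM (iKO). It was the one gene with an unadjusted p under 0.05 (log2 fold change 0.33, adjusted p = 0.999 by the quasi-likelihood test). Ctsw, Prf1 and Serpinb9 had both iKO libraries above both iHET libraries, 3 of 9 genes against 16.5% of all genes tested, and groups that did not overlap in either direction made up 32.1%.

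Some genes varied more between replicates than between genotypes. Ccl5 had iHET levels of 49.2 and 46.3 CPM but iKO levels of 25.2 and 91.7 CPM, a 3.64-fold spread within one genotype. Eomes had iHET levels of 2.58 and 9.65 CPM and iKO levels of 6.96 and 0.765 CPM, a 9.10-fold spread among the iKO libraries. Both genes thus had intervals that spanned 0, from -0.99 to 1.55 for Ccl5 and from -3.04 to 1.73 for Eomes. Prf1 levels were 13.6 and 6.92 CPM (iHET) against 14.6 and 15.5 CPM (iKO), and those of Nkg7 were 59.8 and 36.6 CPM against 56.7 and 76.4 CPM. Serpinb9 levels were 54.6 and 35.8 CPM (iHET) against 58.8 and 55.1 CPM (iKO), and Gzmk was at 1.07 to 2.01 CPM in all 4 libraries. Of 44 other genes of the pathway with a row in this table, 37 were tested and 0 were called. Only 1 (Ifng) had an unadjusted p under 0.05 by the quasi-likelihood test, against 3.62% of all genes tested. Ifng, the gene of interferon gamma, had iHET levels of 3.95 and 5.95 CPM and iKO levels of 7.36 and 14.9 CPM (log2 fold change 1.16, SE 0.40, adjusted p = 0.999). Gamma delta T cell markers summed to 22.2 to 30.8 CPM (iHET) against 31.9 to 45.7 CPM (iKO). The quasi-likelihood and exact tests called 0 of these 3 genes. NK cell markers summed to 9.45 to 15.7 against 3.97 to 9.79 CPM and CD8 T cell markers to 10.2 to 31.7 against 15.5 to 31.1 CPM. Most of the NK cell sum was Klrb1c, at 9.11 and 13.9 CPM (iHET) against 9.18 and 2.59 CPM (iKO). Ncr1 had 0 and 8 reads (iHET) against 0 and 0 reads (iKO). The part of these cells in these levels was not tested.

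Colonic Tregs were compared 7 days after induction with the replicate number as a block. The study kept 1 iHET and 1 iKO mouse in each cage and fitted cage, and that the number marks the cage is an assumption, which the labels do not state. Gzmb, Gzma and Nkg7 were lower in the iKO library of every replicate number, as were 14.1% of all genes tested, and Ctsw was higher in every one, as were 13.2%. Whether they pass the threshold depended on the test. The quasi-likelihood test called 1 of 16313 genes (0.00613%), which was Junb, and 0 of the 7 tested cytotoxic genes, with 3 at an unadjusted p under 0.05 against 3.87% of all genes. The likelihood ratio test, which the study used, called 25 genes (0.153%), 18 of them lower (0.110%), and among these were Gzma and Gzmb. DESeq2 called 50 genes and 3 of the 7, Gzma, Gzmb and Ctsw. The median log2 fold change was -0.12 for the 7 genes and 0.00 for all genes tested.

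Gzmb levels were 383, 374 and 379 CPM in iHET Tregs against 201, 186 and 85.4 CPM in iKO Tregs. The iHET values differed by 1.02-fold at most, every iKO value was lower, and iKO replicate 3 was the lowest. The log2 fold change was -1.36 with an SE of 0.26 and an interval from -2.02 to -0.70, a 2.57-fold lower level. Its adjusted p was 0.947 by the quasi-likelihood test, 0.00219 by the likelihood ratio test and 6.24e-06 by DESeq2. Without iKO replicate 3 the log2 fold change was -0.97. That library also had the highest epithelial sum, 905 CPM against 95.5 to 411 CPM in the other iKO and 146 to 557 CPM in the iHET libraries, and the part of this in the Gzmb level was not tested. Among all genes tested 8.35% had groups that did not overlap, 4.49% lower and 3.86% higher, and Gzmb (lower) and Ctsw (higher) were 2 of the 7.

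Gzma was much lower than Gzmb in the colon and followed the replicate number. Levels were 40.3, 15.6 and 32.6 CPM (iHET) against 18.0, 5.41 and 19.3 CPM (iKO). The groups overlapped, because replicate 2 was lowest in both, but each iKO library was below the iHET library of the same number. With the block, the log2 fold change was -1.15 with an SE of 0.20 (adjusted p = 0.947 by the quasi-likelihood test, 0.0183 by the likelihood ratio test and 0.00126 by DESeq2). Nkg7 levels were 26.4, 36.6 and 46.6 CPM (iHET) against 24.9, 34.5 and 24.4 CPM (iKO). It was lower in each pair, by little in replicates 1 and 2, and the log2 fold change of -0.37 had an interval from -0.91 to 0.18.

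Ctsw went the other way, with 73.3, 59.5 and 71.0 CPM (iHET) against 112, 92.5 and 99.8 CPM (iKO). Every iKO library was above every iHET library, a pattern of 3.86% of all genes tested. The log2 fold change was 0.58 with an SE of 0.10 (adjusted p = 0.947 by the quasi-likelihood test, 0.0779 by the likelihood ratio test and 0.00967 by DESeq2). Prf1, Ccl5 and Serpinb9 overlapped between genotypes, with log2 fold changes of -0.12, -0.04 and 0.01. Perforin transcripts were at 10.1, 8.00 and 6.56 CPM (iHET) against 11.4, 10.2 and 3.46 CPM (iKO). Serpinb9 stood at 86.0, 86.9 and 146 CPM (iHET) against 100.3, 119 and 95.1 CPM (iKO). Ccl5 ranged from 5.96 to 12.8 CPM over the 6 libraries. Gzmk and Eomes were too low to be tested, at no more than 37 and 33 reads in any colonic library.

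Among the other 37 pathway genes tested in colonic Tregs, the quasi-likelihood test called 0, with 9 at an unadjusted p under 0.05 against 3.87% of all genes. The likelihood ratio test called 3, against 0.153% of all genes, and DESeq2 also called 3. Ccr1 and Lta were among those of the likelihood ratio test. Ccr1, which encodes a chemokine receptor that binds CCL5, had iHET levels of 47.8, 54.8 and 58.2 CPM and iKO levels of 29.5, 26.9 and 18.8 CPM (-1.12, likelihood ratio adjusted p = 0.0148). Every iKO library was below every iHET library for Ccr1, while Ccl5 itself overlapped. Lta went from 28.3, 26.0 and 29.7 CPM (iHET) to 65.8, 53.1 and 54.2 CPM (iKO) (1.03, likelihood ratio adjusted p = 0.000483). The 5 tested transcription factors had log2 fold changes from -0.49 to -0.18, and none was called by any of the 3 tools. Of those 5, Tbx21, Runx3, Prdm1 and Zeb2 were lower in the iKO library of each replicate number, a pattern of 14.1% of all genes tested. For Runx3, replicate 2 was nearly level, at 224 CPM (iHET) against 222 CPM (iKO). Gamma delta T cell markers summed to 12.02 to 18.5 CPM (iHET) against 23.3 to 29.3 CPM (iKO), with no overlap. Every iKO library was above every iHET library for Trgc1 and Trgc2, a pattern of 3.86% of all genes tested. Trdc overlapped, at 0.989 to 3.90 against 3.10 to 4.59 CPM. The quasi-likelihood and likelihood ratio tests called 0 of these 3 genes. CD8 T cell sums were 7.79 to 10.005 against 9.73 to 12.1 CPM. NK cell sums were 0.230 to 1.31 against 0.667 to 1.94 CPM, with 0 of the 7 NK cell markers high enough to be tested. The part of these cells in these levels was not tested.

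**Figure D3:**
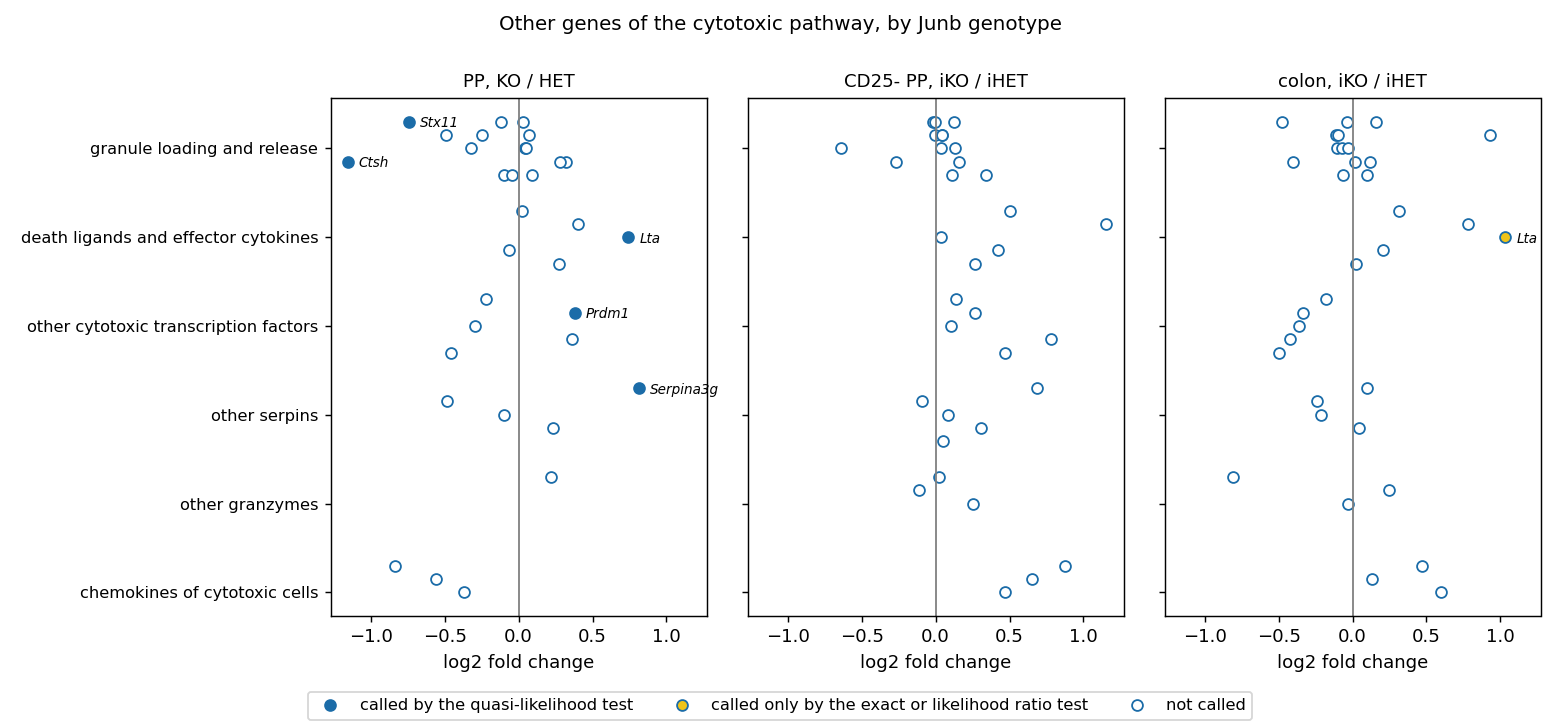
Log2 fold change of other tested genes of the pathway (points, by list, receptors not drawn) in the 3 genotype comparisons; filled blue points passed an adjusted p of 0.05 in the quasi-likelihood test and yellow points only in the test the study used. Ctsh and Stx11 are called lower and Lta, Prdm1 and Serpina3g higher in PP Tregs, none is called in CD25- PP Tregs, and Lta is yellow in colonic Tregs.

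The difference between the 2 induced responses was tested directly, as the change in colonic Tregs minus the change in CD25- PP Tregs in a single fit of the 10 inducible libraries. The test called 0 of 18626 genes (0%), with 622 (3.34%) at an unadjusted p under 0.05, and the likelihood ratio test and DESeq2 called 2 each (0.0107% for the former). None of the 9 genes was called by any of the 3 tools. Gzmb was the one with an unadjusted p under 0.05, with a difference of -1.37 on the log2 scale (SE 0.43, interval -2.32 to -0.42, adjusted p = 1.00 by the quasi-likelihood test). For Gzma the difference was -1.24 with an interval from -2.79 to 0.31, and for Nkg7 it was -0.85 with an interval from -1.76 to 0.06. Ctsw differed by 0.24, with an interval from -0.21 to 0.69.

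Levels in colonic and CD25- PP Tregs of the inducible line were then compared within each genotype. These contrasts use the same libraries as the genotype comparisons, and the CD25 gate was applied in PP only and Dispase digestion in colon only, so organ, gate and digestion cannot be told apart. By the quasi-likelihood test, Gzma, Ctsw and Ccl5 were lower and Gzmb and Serpinb9 higher in colonic iHET Tregs. That is 5 called of 9 genes tested, where 6.45% of 18626 genes were called, 4.22% higher and 2.23% lower in colon. In iKO Tregs, Gzma, Nkg7, Ctsw and Ccl5 were lower in colonic Tregs and none was called higher by that test, 4 of 9 genes against 4.07% of all genes, 2.48% higher and 1.59% lower. The likelihood ratio test and DESeq2 each called 5 of 9 in iKO Tregs, Serpinb9, higher in colon, being the one added, and 6 of 9 in iHET Tregs, adding Eomes, lower in colon. Those tests also called more of the 18626 genes. The likelihood ratio test called 1207 higher and 781 lower in iHET and 990 higher and 632 lower in iKO Tregs. DESeq2 called 2504 in iHET and 2233 in iKO Tregs.

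Gzma was at 15.6 to 40.3 CPM in colonic and 125 to 168 CPM in CD25- PP iHET Tregs. No library overlapped, and the level in colon was 4.96-fold lower (log2 fold change -2.31, SE 0.49, adjusted p = 0.0243). In iKO Tregs the same difference was -3.55 with an SE of 0.50 (11.7-fold lower, adjusted p = 0.00737), and without CD25- PP iKO replicate 2 its adjusted p was 0.0541. Gzmb went the other way in iHET Tregs, at 374 to 383 CPM in colonic and 117 to 159 CPM in CD25- PP Tregs (log2 fold change 1.46, SE 0.32, adjusted p = 0.0268). Among iKO Tregs the Gzmb levels of the organs overlapped, at 85.4 to 201 CPM and 138 to 159 CPM, and the log2 fold change of 0.08 had an interval from -0.59 to 0.75. Without any one of the 10 libraries, the iHET difference stayed between -2.61 and -2.01 for Gzma and between 1.25 and 1.72 for Gzmb. Each call was lost without colonic iHET replicate 2 or 3 or without either CD25- PP iHET library, with adjusted p from 0.0526 to 0.253.

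Serpinb9, the inhibitor of granzyme B, had the direction of Gzmb. Levels were 86.0 to 146 CPM in colonic and 35.8 to 54.6 CPM in CD25- PP iHET Tregs (log2 fold change 1.23, SE 0.27, adjusted p = 0.0260, or 0.250 without CD25- PP iHET replicate 2). In iKO Tregs the difference was 0.88 with an adjusted p of 0.0910, which the likelihood ratio test and DESeq2 put at 0.0287 and 0.0169. Ctsw was lower in colonic Tregs by 1.03 in iHET and 0.79 in iKO Tregs on the log2 scale (log2 fold changes -1.03 and -0.79, adjusted p = 0.00435 and 0.0181). The iHET call held without any one of the 10 libraries, and the iKO call was lost without colonic iKO replicate 2 or 3 or either CD25- PP iKO library (adjusted p from 0.0546 to 0.192). Ccl5 was at 5.96 to 12.8 CPM in colonic and 46.3 to 49.2 CPM in CD25- PP iHET Tregs (log2 fold change -2.36, adjusted p = 0.0181), a call lost without colonic iHET replicate 2 or either CD25- PP iHET library (0.0565 to 0.111). The iKO difference for Ccl5 was -2.74 (adjusted p = 0.0151), and it was -1.53 with an adjusted p of 0.130 without CD25- PP iKO replicate 2 and had an adjusted p of 0.0636 without colonic iKO replicate 2. Nkg7 was called in iKO but not in iHET Tregs, with log2 fold changes of -1.25 (adjusted p = 0.0419) and, in iHET Tregs, -0.40 (adjusted p = 0.459). The iKO call of Nkg7 was lost without any one of the 5 iKO libraries or colonic iHET replicate 2 (adjusted p from 0.0544 to 0.307). The difference between the 2 values is the one tested above for the induced responses, where Nkg7 had an adjusted p of 1.00.

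The remaining 3 genes showed no call between organs in the quasi-likelihood test. Eomes had log2 fold changes of -4.00 in iHET and -2.61 in iKO Tregs, with wide intervals, from -7.02 to -0.98 and from -5.47 to 0.25. In iHET Tregs the likelihood ratio test and DESeq2 called Eomes (adjusted p = 0.0319 and 0.0137). Its reads were few in the colon, 0 to 33 a library, against 21 to 279 in CD25- PP Tregs. Prf1 had log2 fold changes of -0.32 and -0.85, and Gzmk of -1.27 and -1.84, with intervals that included 0.

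**Figure D4:**
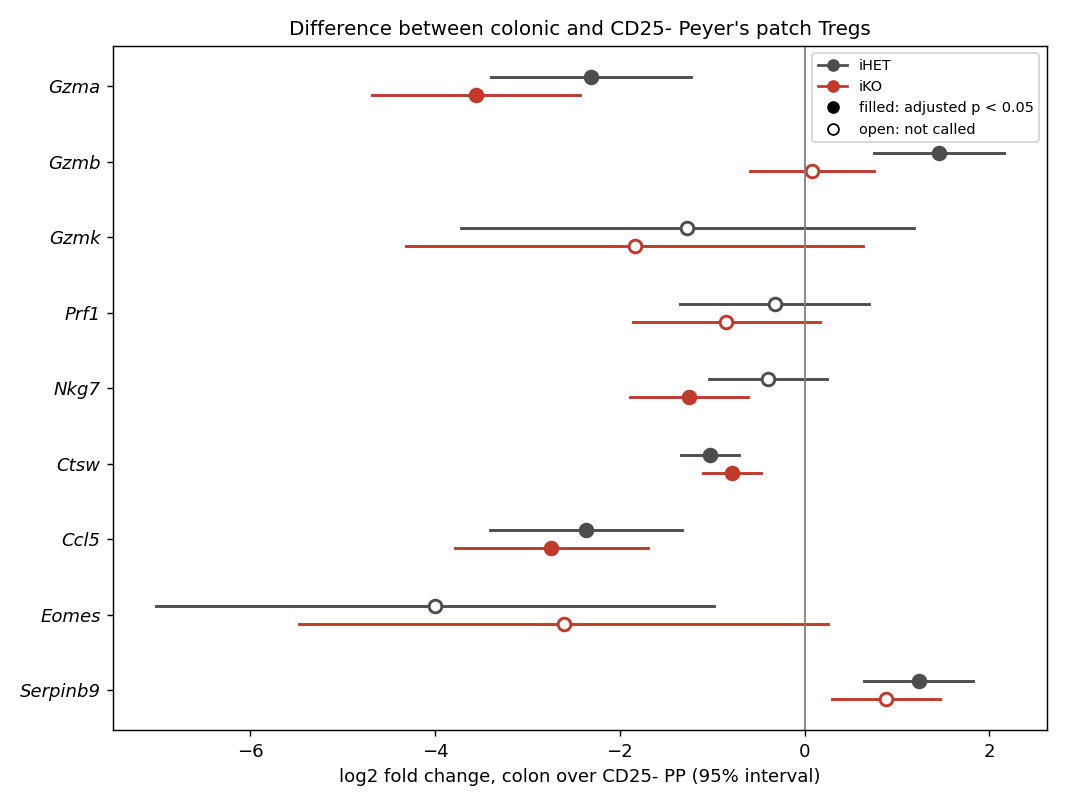
Log2 fold change of each gene, colonic over CD25- PP Tregs, in iHET (grey) and iKO (red); points are estimates, lines are 95% intervals, filled points passed an adjusted p of 0.05. Gzma, Ctsw and Ccl5 lie below 0 in both genotypes, and Gzmb lies at 1.46 in iHET and 0.08 in iKO.

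Of 38 other pathway genes tested between organs, 9 were called higher and 3 lower in colonic iHET Tregs. Among all genes tested these shares were 4.22% and 2.23%. The median log2 fold change of the 38 genes was 0.59 beside -0.01 for all genes tested. The called transcription factors were Runx3 (1.47), Prdm1 (1.07) and Zeb2 (2.31), and Ccr1 was called as well, at 3.62. Ifng (1.59), Serpina3g (1.04), Ctsh (2.59) and Stx11 (1.18) were also called higher, and Lamp1 (-0.68), Igf2r (-1.15) and the chemokine gene Xcl1 (-2.33) were lower. In iKO Tregs 6 were called higher and 2 lower, against 2.48% and 1.59% of all genes tested. Markers of other cells also differed, with NK cell sums of 0.230 to 1.94 CPM in colonic and 3.97 to 15.7 CPM in CD25- PP libraries and CD8 T cell sums of 7.79 to 12.1 and 10.2 to 31.7 CPM. Klrb1c, the 1 tested of the 7 NK cell markers, was at 0 to 1.81 CPM in colonic and 2.59 to 13.9 CPM in CD25- PP libraries. Ncr1 had at most 8 reads in any of these libraries. The quasi-likelihood test did not call Klrb1c in either genotype, and the likelihood ratio test called it lower in colonic iHET Tregs only. Epithelial and myeloid sums went towards the colon with overlap. They were 95.5 to 905 and 86.6 to 235 CPM in colonic and 68.0 to 161 and 57.5 to 102 CPM in CD25- PP libraries. The myeloid genes did not move as one. Adgre1 was nearly level, at 45.2 to 57.0 CPM in colonic and 41.3 to 56.0 CPM in CD25- PP libraries. Lyz2 was at 22.4 to 126 and 3.54 to 40.1 CPM, and Csf1r at 10.3 to 38.2 and 2.48 to 7.89 CPM. Cd8a was called lower in colonic iKO Tregs (log2 fold change -3.66, adjusted p = 0.0485), and the part of these cells in the differences between organs was not tested. Il2ra, which encodes CD25, was at 561 to 752 CPM in colonic and 185 to 239 CPM in CD25- PP Tregs, as the gates differ.

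The balance of the 2 main granzymes differed between colonic and CD25- PP Tregs, where organ, gate and digestion cannot be told apart. Per kilobase of exon, the ratio of Gzmb to Gzma was 0.665 and 0.657 in the CD25- PP iHET libraries and 0.626 and 0.618 in the iKO libraries. In colonic Tregs it was 6.66, 16.8 and 8.14 in iHET and 7.83, 24.1 and 3.11 in iKO libraries. All 6 colonic ratios were above all 4 of CD25- PP Tregs, while the genotypes overlapped in colon and differed by little in CD25- PP Tregs. PP Tregs of the constitutive line had ratios of 1.43 and 1.09 in HET and 2.65 and 1.05 in KO libraries, also overlapping, although both granzymes fell there.

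**Figure D5:**
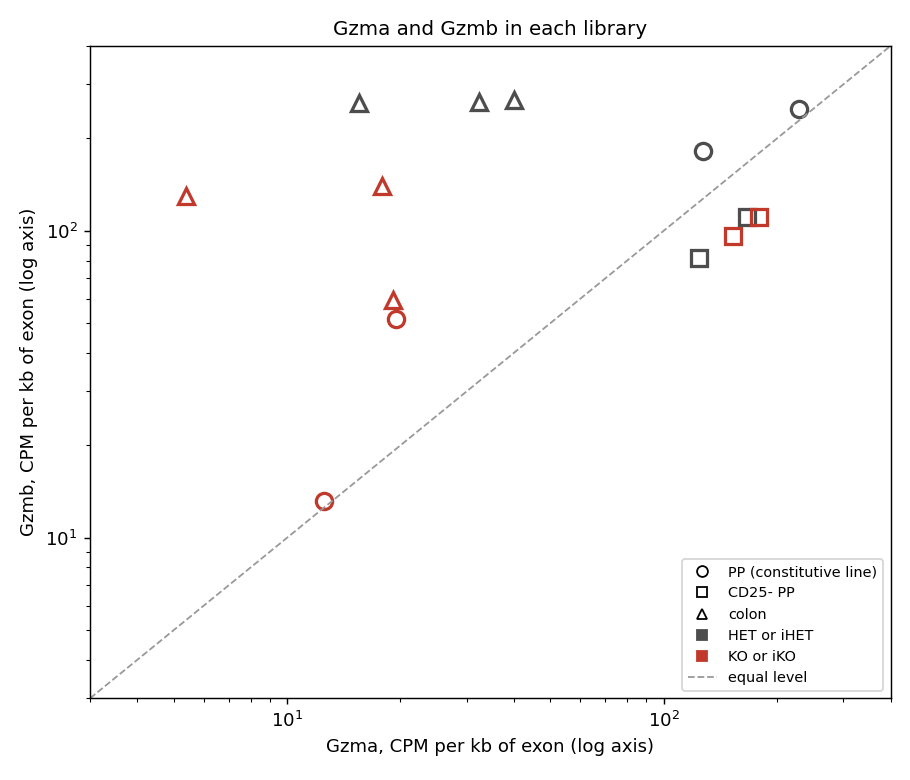
Gzmb against Gzma in each of the 14 libraries, in CPM per kb of exon on log axes; the dashed line marks equal levels, shapes are populations, grey is Junb F/+ and red is Junb F/F. Colonic libraries lie above the line (ratios 3.11 to 24.1), CD25- PP libraries below it (0.618 to 0.665), and the 2 PP KO libraries lie at lower levels of both genes than the 2 PP HET libraries.

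The genes with the pattern most like each granzyme were sought among 11438 genes with a mean of at least 5 CPM, by the mean absolute difference of log2 CPM, each gene centred on its own mean, over the 10 inducible libraries. For Gzma they included Atp6v0d2 (0.24), Ispd (0.31), Cpne7 (0.37) and Pou2af1 (0.45). For Gzmb they were Galc (0.21), Atp2b4 (0.28), Lancl2 (0.29), 6530402F18Rik (0.29) and Atp5l (0.30). No other gene of the 9 was among either set. Galc, for example, averaged 30.6 CPM in colonic iHET, 16.2 CPM in colonic iKO and 13.4 CPM in both CD25- PP groups, against 379, 157, 138 and 149 CPM for Gzmb. The points share libraries and depth, so this is a description of likeness only.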

How the data were processed

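RNA-seq of sorted mouse Tregs was analysed from 2 deposited tables of counts, whole numbers of reads per gene that the authors made by trimming reads (Trim Galore), aligning them to GRCm38 (STAR, unique alignments only) and assigning them with featureCounts. The counts came without normalization or filter, and only the forward reads of the paired-end inducible libraries had been used. Libraries were made with a SMARTer kit, which does not mark strand, so reads in the overlap of Ctsw with Fibp and of Eomes with Gm33460 cannot be assigned to one gene. Symbols and coordinates came from GENCODE M21 by gene ID.

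Genes with at least 1 CPM in as many libraries as the smallest group were kept and tested with edgeR 4.0.16 (quasi-likelihood F test, TMM normalization, prior count 1) in R 4.3.3, with Benjamini-Hochberg adjusted p over all genes tested and a threshold of 0.05. PP and CD25- PP comparisons had no further term. The colonic one had the replicate number as a block, standing for the cage that the study fitted, an assumption, since the labels do not tie number to cage. Organ contrasts and their difference came from 1 fit of all 10 inducible libraries without a block, because the labels do not say whether libraries of one number share a mouse. The tests of the study (exact test for PP, likelihood ratio test for colon) and DESeq2 1.42.0 were alternatives, as were other filters, size factors, the block and leaving out each library. Intervals are 95% intervals of the fit. Levels are CPM with 1 TMM normalization per table, and levels compared between genes are per kb of exon. The scripts were tested on simulated data. Depth limits rare genes, and 3 reads in a library correspond to 0.0845 to 0.114 CPM, which covers counting error only.

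Genotype groups came from the labels. Deviations of samples of one replicate number were correlated with r of 0.23 in PP, 0.12 in CD25- PP and 0.21, 0.36 and 0.03 in the 3 colonic pairs. Colonic pairs of unlike numbers had r from -0.33 to 0.08, so the replicate 3 pair did not stand out. With 2 libraries a group, as in PP and CD25- PP, the pairs of unlike numbers have the same r with the other sign by construction. In the inducible line replicate 1 was male and replicates 2 and 3 female, so sex is part of what libraries of one number share. The 9 genes, the 18 gene lists and the rule for named genes (the 9 genes, Junb, list members past the threshold or up to 4 with the lowest p, and the 5 nearest patterns of Gzma and Gzmb) were chosen with earlier results of these data known. Results for some genes are not reported here.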

Additional observations from a re-analysis of the deposited data

How the results depend on the processing

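Counts of genes past the threshold moved with the test and with the removal of the filter, and little with DESeq2's size factors (401, 0, 1, 1199, 737 and 0 genes in the order below). In PP Tregs the 409 genes became 689 with the exact test, 696 with DESeq2, 1305 without a filter and 1015 with the replicate block, and 54 to 313 without one library. In CD25- PP Tregs the 0 became 43 (exact test), 35 (DESeq2), 232 (no filter), 1 (at least 10 counts in every library) and 1 (1 fit of 10 libraries), and 0 to 128 without one library. In colonic Tregs the 1 became 25 (likelihood ratio test), 50 (DESeq2) and 24 (no filter), and 0 to 8 without one library. Between organs the 1201 in iHET became 1988 (likelihood ratio test), 2504 (DESeq2) and 2848 (no filter), and 137 to 1700 without one library. The 758 in iKO became 1622, 2233, 2348 and, with the replicate block, 430, and 74 to 1096 without one library. The difference between the induced responses gave 2 (likelihood ratio test), 2 (DESeq2) and 282 (no filter) in place of 0, and 0 without any one library. Without the filter Gzma and Gzmb were called in the difference (adjusted p 0.00162 and 3.5e-05) and in colonic Tregs (0.0332 and 0.000984). The cause was not tested.

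Samples of the same replicate number in PP Tregs share only a number in the labels, and the block there added Ctsw, Ccl5, Eomes and Serpinb9 (adjusted p 0.00450, 0.00611, 0.00640 and 0.0264). Between organs the block took the iHET call of Serpinb9 (0.0632) and the iKO call of Nkg7 (0.0783). The direction turned for small differences. Without the block and in the fit of 10 libraries, colonic log2 fold changes were 0.021 and 0.024 for Prf1 and -0.028 and -0.024 for Serpinb9, and the block gave 0.053 for Prf1 between organs in iHET.

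Without one library each, CD25- PP log2 fold changes ranged from -0.017 to 0.43 for Gzma, -0.11 to 0.35 for Gzmb, -0.15 to 0.73 for Gzmk, -0.92 to 0.94 for Ccl5 and -2.95 to 0.58 for Eomes. Colonic ones ranged from -0.38 to 0.26 for Prf1, -0.33 to 0.10 for Ccl5 and -0.21 to 0.34 for Serpinb9. Between organs they ranged from -0.72 to 0.27 for Prf1 and -0.70 to 0.019 for Nkg7 in iHET and from -0.13 to 0.38 for Gzmb in iKO. The difference between responses ranged from -1.08 to 0.12 for Gzmk and -1.04 to 0.82 for Ccl5. None of these had been called. Depth limits Gzmk and Eomes, with at most 58 and 279 reads in a library.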

Other observations

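Gzmn, a granzyme gene of the same cluster as Gzmb, had 0 reads in the 4 libraries of the constitutive line and 18.0 to 34.5 CPM in the 10 libraries of the inducible line. The mast cell proteases Mcpt1 and Mcpt2, also encoded near Gzmb, showed the same split, with 0 reads in the 4 libraries and 4.67 to 9.54 CPM in the 10. Mcpt4 had 0 to 2 reads in the 4 and 33 to 115 reads in the 10, and Fcer1a 0 to 1 and 2 to 44 reads. A split of this kind was not limited to that cluster or to mast cell genes. Lyst (chr13) was at 9.58 to 17.1 CPM in the 4 and 63.8 to 81.0 CPM in the 10. Adgre1 (chr17) was at 0.556 to 2.08 CPM in the 4 and 41.3 to 57.0 CPM in the 10. The mast cell gene Cpa3 did not split, with 5 to 13 reads in the 4 and 0 to 18 reads in the 10, and Cma1 had at most 2 reads in any library. Lines, sequencing runs and count tables differ together between these sets and cannot be told apart. Cd8a was at 13.6 and 23.2 CPM in CD25- PP replicate 2 (iHET and iKO) and at 2.65 and 2.13 CPM in replicate 1, so both replicate 2 libraries were above both replicate 1 libraries. Replicate 1 was male and replicate 2 female in both genotypes, so replicate number and sex cannot be told apart there.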
